A study of Malus domestica with 5 samples.

Results

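miR159 and miR319 are related plant miRNAs, and the apple (Malus domestica) table compared here holds 6 names that begin with mdm-miR159 or mdm-miR319, among 207 named apple miRNAs and 430043 features in all. The rule that picked them used names alone, but it was set with earlier results of these data known. Within each family the names ending in a and b had identical counts in every library and are counted once, which leaves 4 distinct members: miR159a and miR159b together (written miR159a/b), miR159c, miR319a and miR319b together (miR319a/b), and miR319c. Reads of a and b cannot be told apart. By name, 2 of the 6 match a gene of the RefSeq table for the assembly GDT2T_hap1 of apple, MIR159A and MIR319A.

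Small RNA libraries were made from 3 samples of reproductive-phase buds and 2 samples labelled as juvenile-phase buds. The tissue label of the juvenile samples names a sucker with juvenile-like character from the base of the stem, and that of the reproductive samples names reproductive-phase buds, so phase and tissue source cannot be told apart. Cultivar, tree and age are not given by the labels. Nothing says that the replicates are different trees, and the spread that p-values are based on may thus be technical. No messenger RNA was measured, so the tissue labels were not checked against marker genes.

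miR159 and miR319 share much of their sequence and are thought to have a common origin. In Arabidopsis, miR159 guides the cleavage of GAMYB-like MYB mRNAs, whose products act in gibberellin responses, anther development and programmed cell death, and miR319 guides the cleavage of mRNAs of CIN-type TCP factors, which limit cell division in leaves and petals. In that species miR319 can also act on the MYB mRNAs, whereas miR159 does not act on the TCP mRNAs to a comparable degree. Both families are known for roles in leaf form and in the development of flower organs.

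Counts summed over all features ranged from 122455352 to 140173167 in the reproductive libraries and from 85087230 to 97283456 in the juvenile ones. Identical counts under several names show that a read can be counted more than once, so these sums are not numbers of reads. TMM factors (edgeR's trimmed mean of M-values, which scales libraries so that most features do not differ) were 1.33 to 1.42 in the reproductive and 0.580 to 0.676 in the juvenile libraries, and multiplied these sums. The median log2 fold change over all features tested was 0.08 under TMM, 0.53 when TMM was computed over miRNA families only, and 1.19 with the sums alone. Fold changes between the groups therefore shift with the scaling, which turned the direction of miR159a/b among the 4 members, and quotients of counts within a library do not.

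Within a library, miR319 outweighed miR159 in all 5 libraries, and by more in the reproductive ones. The quotient of the miR319 family sum over the miR159 family sum was 3.88, 3.07 and 3.28 in reproductive replicates 1, 2 and 3, against 1.62 and 1.53 in juvenile replicates 1 and 2. The groups did not overlap. The mean was 3.41 ± 0.42 in reproductive buds (SD, n = 3) and 1.57 ± 0.065 in juvenile buds (SD, n = 2), a difference of 1.11 on the log2 scale. The two-sided exact permutation test over the 10 splits gave p = 0.1, the smallest this design allows, and 0.14 after Benjamini-Hochberg adjustment over the 14 quotients and shares compared. In edgeR's quasi-likelihood fit over 37 families, with each library scaled on its own miR159 sum, miR319 was higher by 1.12 on the log2 scale (SE 0.12, adjusted p = 0.0038). The share of families called in that fit is not given, so the call by itself does not set miR319 apart. Under TMM, 23 of the 37 families had a higher fold change than miR159, and 14 a higher one than miR319. A rise against miR159 was thus not particular to miR319.

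The balance was steeper still between the minor members. miR319c over miR159c was 18.4, 19.4 and 22.8 in the reproductive libraries, against 0.545 and 1.00 in juvenile replicates 1 and 2. In reproductive buds the rarer miR319 form thus had many times the counts of the rarer miR159 form, and in juvenile buds it had the same number or fewer. The difference of 4.77 on the log2 scale came with the same exact permutation p = 0.1 (0.14 adjusted). This quotient was chosen after its values were seen, and it rests on small counts, from 16 to 44 per library, in all but the reproductive miR319c values.

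**Figure D1:**
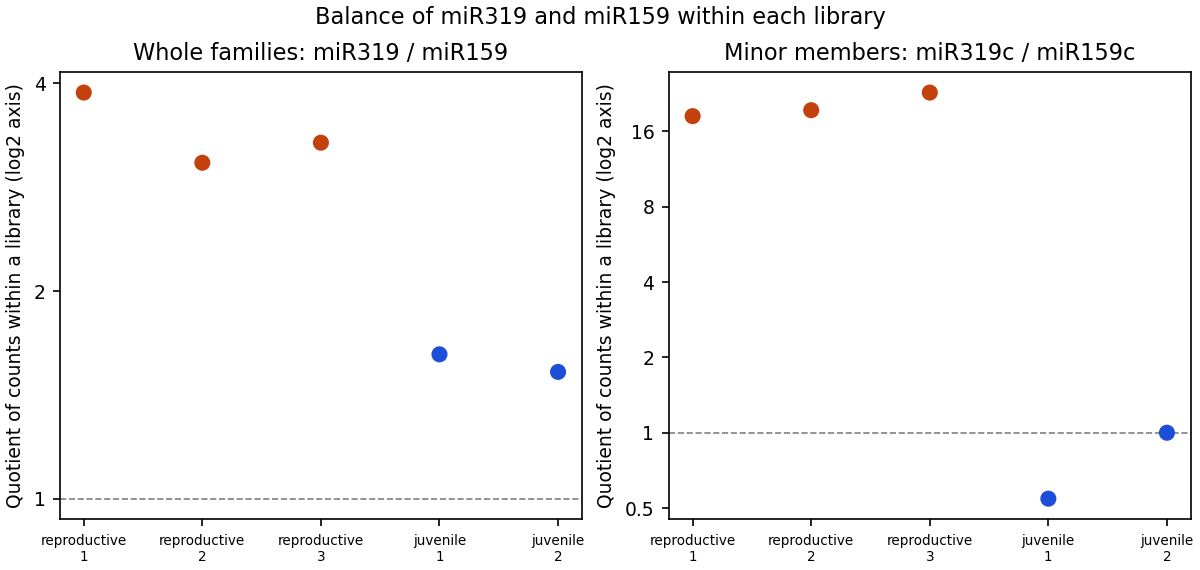
Quotients of counts within each library on a log2 axis, for the family sums (miR319 over miR159, left) and for the minor members (miR319c over miR159c, right), each point being 1 library. The 3 reproductive libraries lie between 3.07 and 3.88 for the families and between 18.4 and 22.8 for the minor members, above both juvenile libraries; the dashed line marks a quotient of 1.

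Each family was almost wholly made up of its main member. miR159a/b held 99.96%, 99.95% and 99.95% of the miR159 sum in the reproductive libraries, against 99.8% and 99.92% in the juvenile libraries. miR319a/b held 99.8%, 99.67% and 99.65% of the miR319 sum in the reproductive libraries, against 99.93% and 99.95% in the juvenile libraries. The minor member miR159c therefore made up 0.0481% ± 0.00557 of its family in reproductive buds (SD, n = 3) and 0.141% ± 0.0853 in juvenile buds (SD, n = 2). For miR319c the order of the groups was the opposite, with 0.293% ± 0.0833 of its family in reproductive buds and 0.0603% ± 0.0106 in juvenile buds. Neither share overlapped between the groups. The two-sided exact permutation test gave p = 0.1 for miR159 (0.14 adjusted) and p = 0.2 for miR319 (0.22 adjusted).

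Set against the rest of their own family, the minor members moved in opposite directions. edgeR's diffSpliceDGE compares a member's fold change with that of its family and called 19% of the 42 distinct members tested in 15 families. miR319c stood 2.23 above its family on the log2 scale (SE 0.33, adjusted p = 0.00023). miR159c stood below its family, with a log2 difference of -1.54 (SE 0.39, adjusted p = 0.010). The miR159c difference rested on juvenile replicate 1: without that library it was -0.74 (diffSpliceDGE adjusted p = 0.52).

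Compared between the groups as single features, all 4 distinct members passed the edgeR quasi-likelihood test under TMM, both miR319 members higher and both miR159 members lower in reproductive buds. Of all 282619 features tested in the same fit, 21.1% were called higher and 24.3% lower, 45.3% in either direction, so a call by itself sets no member apart. With the sums alone 83.3% of features were called higher and 2.46% lower, with TMM over the families 36.9% and 6.68%, and with DESeq2 13.2% and 21.8%. Reproductive and juvenile libraries had no overlap in the TMM-normalised counts of any of the 4, as was also the case for 69.1% of all features (36.1% higher and 33% lower). Because the libraries are of bud or sucker tissue and not of single cell types, fewer cells of a type and less of a miRNA per cell cannot be told apart.

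miR319c, the rarer form of the TCP-targeting family, differed most. Its counts were 331, 369 and 434 in the reproductive libraries, against 24 and 16 in the juvenile libraries. After TMM scaling these were 199, 250.2 and 277 normalised counts in reproductive buds, against 40.8 and 36.2 in juvenile buds. Every reproductive library lay well above both juvenile ones. The mean was 242 ± 39.5 in reproductive buds (SD, n = 3) and 38.5 ± 3.23 in juvenile buds (SD, n = 2). The member rose 6.21-fold (edgeR adjusted p = 8.2e-08, log2 fold change 2.63, SE 0.22). Under TMM only 1 of the 64 distinct named miRNAs tested had a higher fold change, and 99.1% of all features tested had a lower one. The member was also called higher with DESeq2 (log2 fold change 2.62), with TMM over the families (3.09) and with the sums alone (3.75).

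miR319a/b, the main form, was higher by much less under TMM, and its call was fragile. Its counts were 166917, 111759 and 122712 in the reproductive libraries, against 35377 and 30303 in the juvenile libraries. The normalised counts were 100336, 75773 and 78202 in reproductive buds, against 60143 and 68628 in juvenile buds. Reproductive replicate 1 stood above the other two, and the lowest reproductive library was close to the higher juvenile one. The mean was 84770.4 ± 13535 in reproductive buds (SD, n = 3) and 64386 ± 6000.2 in juvenile buds (SD, n = 2), a difference of 1.32-fold (edgeR adjusted p = 0.034, log2 fold change 0.40, SE 0.14). That call ended without reproductive replicate 1 (log2 fold change 0.27, edgeR adjusted p = 0.050, above the threshold before rounding), reproductive replicate 2 (0.47, 0.10), juvenile replicate 1 (0.30, 0.21) or juvenile replicate 2 (0.49, 0.062). It was called higher with DESeq2 (0.38), with TMM over the families (0.87) and with the sums alone (1.52), and 64.8% of all features tested had a lower fold change under TMM.

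miR159a/b, the main form of the MYB-targeting family, was lower under TMM, with a direction that turned with the scaling. Its counts were 43096, 36518 and 37508 in the reproductive libraries, against 21822 and 19844 in the juvenile libraries. The normalised counts were 25906, 24759 and 23903 in reproductive buds, against 37099 and 44941 in juvenile buds. The reproductive libraries lay close together and below both juvenile ones. The mean was 24856 ± 1005 in reproductive buds (SD, n = 3) and 41020.0 ± 5546 in juvenile buds (SD, n = 2), which is 1.65-fold lower under TMM (edgeR adjusted p = 9.3e-05, log2 fold change -0.72, SE 0.11). DESeq2 gave -0.74 and called it lower, TMM over the families gave -0.27 without a call (edgeR adjusted p = 0.31), and the sums alone gave 0.41 and called it higher (edgeR adjusted p = 2.4e-05). Its place among all features moved little, with 13.7% of them having a lower fold change under TMM and 14.2% with the sums alone.

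miR159c was the rarest of the 4 in reproductive buds. Its counts were 18, 19 and 19 in the reproductive libraries, against 44 and 16 in the juvenile libraries, where juvenile replicate 1 had the highest value and juvenile replicate 2 the lowest of all 5. After TMM scaling the groups separated, with 10.8, 12.9 and 12.1 normalised counts in reproductive buds, against 74.8 and 36.2 in juvenile buds. The mean was 11.9 ± 1.04 in reproductive buds (SD, n = 3) and 55.5 ± 27.3 in juvenile buds (SD, n = 2). The member fell 4.81-fold (edgeR adjusted p = 2.8e-05, log2 fold change -2.27, SE 0.32). Without juvenile replicate 1 the log2 fold change was -1.60 (edgeR adjusted p = 0.0097). It was called lower with DESeq2 (-2.26), with TMM over the families (-1.80) and with the sums alone (-1.16, edgeR adjusted p = 0.0069). Of the 64 distinct named miRNAs tested it was number 3 from the lowest fold change, and 0.187% of all features had a lower one.

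**Figure D2:**
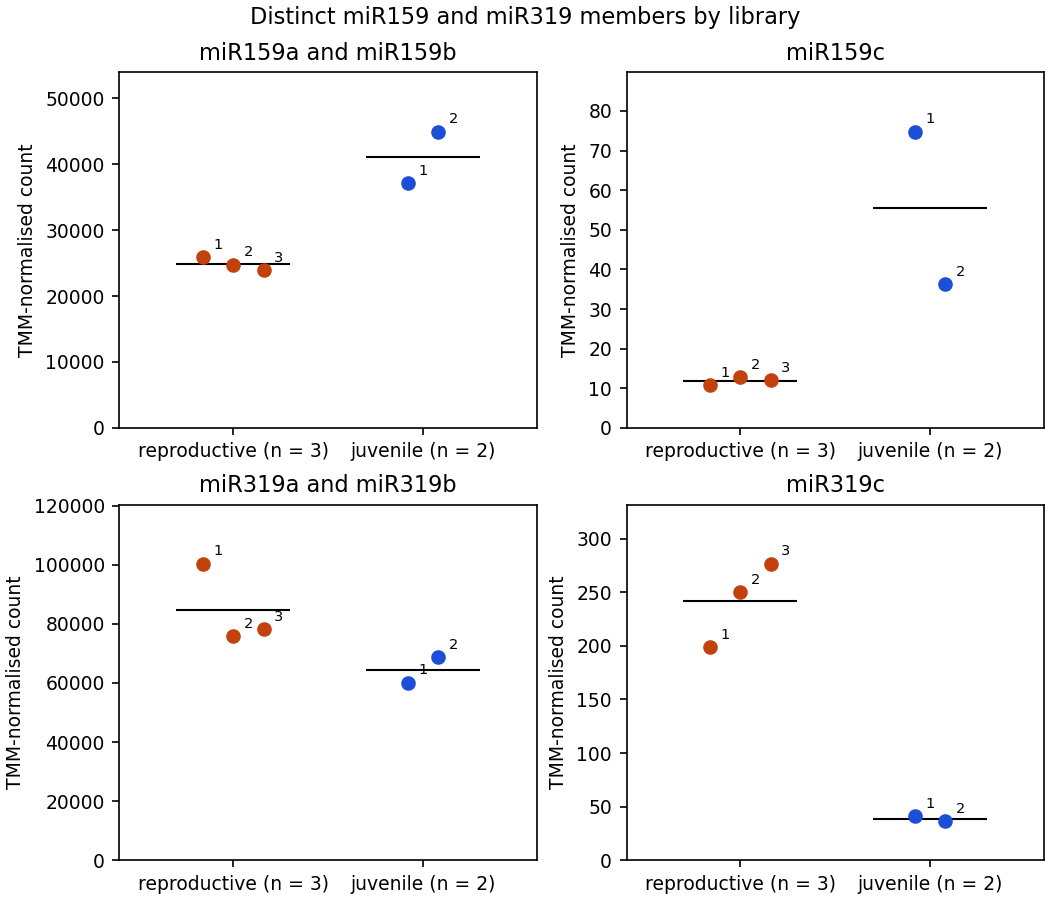
TMM-normalised counts of the 4 distinct members on linear axes that start at 0, for reproductive (n = 3, orange) and juvenile (n = 2, blue) libraries, with points numbered by replicate and a line at each group's mean. miR319c lies between 199 and 277 in reproductive and at 36.2 and 40.8 in juvenile libraries, while the 2 juvenile values of miR159c (74.8 and 36.2) lie far apart.

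**Figure D3:**
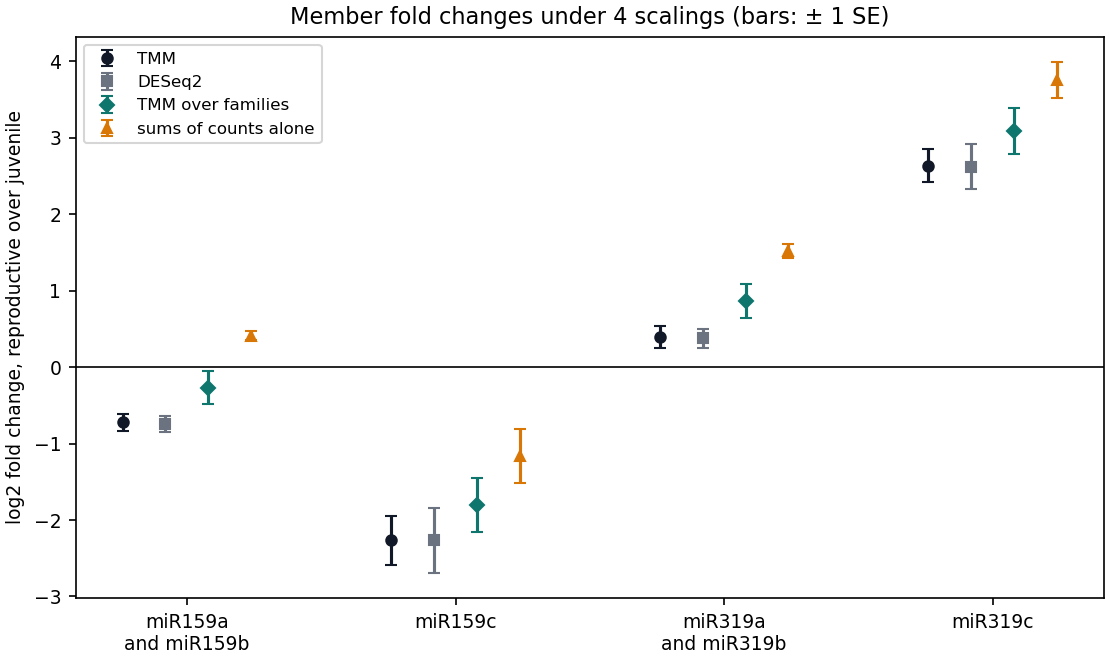
Log2 fold changes of the 4 members, reproductive over juvenile, under 4 scalings of the libraries, with bars of 1 SE from 3 reproductive and 2 juvenile libraries. miR319a/b and miR319c lie above 0 and miR159c below 0 under each scaling, and miR159a/b lies at -0.72 under TMM and 0.41 with the sums alone.

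Taken as family sums, miR159 was called lower under TMM and miR319 was not called. The miR159 sums averaged 24868 ± 1004 normalised counts in reproductive and 41076 ± 5518 in juvenile buds (log2 fold change -0.72, SE 0.18, edgeR adjusted p = 0.00039), where 13.5% of the 37 families tested were called higher and 37.8% lower, 51.4% in either direction. The miR319 sums were 100535, 76023 and 78478 normalised counts in the reproductive libraries, against 60184 and 68665 in the juvenile libraries (edgeR adjusted p = 0.093, log2 fold change 0.40, SE 0.21). This family was called higher with TMM over the families (0.87), where 37.8% of families were called higher and 27% lower, and with the sums alone (1.52), where 54.1% were higher and 8.11% lower. Under TMM the miR319 sum missed the threshold in the family fit while its main member passed it among single features. The common biological coefficient of variation between libraries was 0.17 over families and 0.0758 over features. Ordered from the highest fold change, miR319 was number 15 and miR159 number 24 of the 37 families under TMM, and numbers 14 and 24 with the sums alone.

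Among the named miRNAs, miR319 took up a much larger part of the counts in reproductive buds. With each distinct set of counts added once, miR319 held 22.9%, 21.1% and 23.6% of the named miRNA counts in the reproductive libraries, against 9.05% and 8.58% in the juvenile libraries (difference 13.7 percentage points, two-sided exact permutation p = 0.1, 0.14 adjusted). miR159 held 5.89%, 6.88% and 7.20% in the reproductive libraries, against 5.59% and 5.62% in the juvenile libraries (exact permutation p = 0.2, 0.22 adjusted). With miR319 left out of the total, miR159 held 8.60% ± 0.901 in reproductive and 6.15% ± 0.0013 in juvenile buds (SD, n = 3 and n = 2, exact permutation p = 0.1, 0.14 adjusted). So on this measure, as with the sums alone, miR159 lay higher in the reproductive libraries, the opposite of its direction under TMM. A share depends on the other miRNAs in the total, of which miR166a had more counts than either family in every library. miR159 over miR166a was 0.114, 0.153 and 0.167 in the reproductive libraries, against 0.0895 and 0.0875 in the juvenile libraries. The share of miR159 without miR166a in the total was not tested. By count, miR319a/b was number 2 of the 79 distinct named miRNAs in each reproductive library and number 3 in each juvenile one, and miR159a/b was number 4 in all 5. miR319c ranked between 23 and 25 in reproductive and between 40 and 45 in juvenile libraries, and miR159c between 53 and 57 in reproductive and between 37 and 40 in juvenile libraries.

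**Figure D4:**
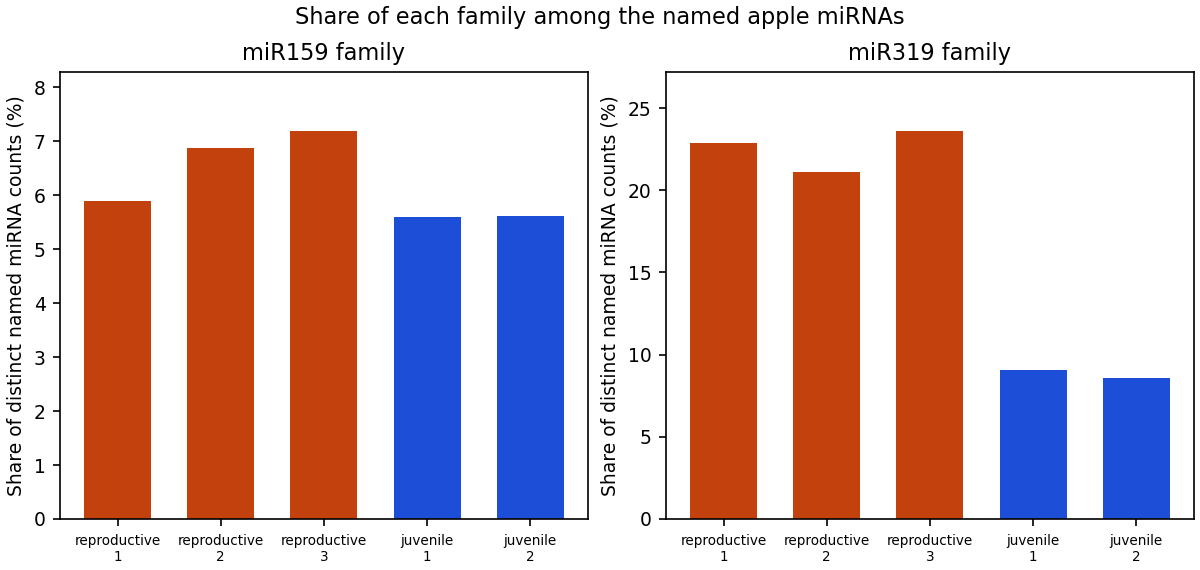
Share (%) of the counts of distinct named apple miRNAs held by the miR159 family (left) and the miR319 family (right) in each reproductive (orange) and juvenile (blue) library, with axes of different height that start at 0. miR319 holds 21.1% to 23.6% in reproductive and 8.58% to 9.05% in juvenile libraries, and miR159 between 5.59% and 7.20% in all 5.

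Quotients over the other miRNAs that ranked among the first 5 in every library gave the same picture for miR319 and a mixed one for miR159. Over miR394a, of a family that acts on an F-box mRNA in the shoot meristem, miR319 stood at 8.58, 6.29 and 6.51 in the reproductive libraries, against 2.33 and 2.09 in the juvenile libraries (exact permutation p = 0.1, 0.14 adjusted). Over miR482a-5p, miR319 stood at 2.80, 1.58 and 1.88 in the reproductive libraries, against 0.967 and 0.902 in the juvenile libraries (exact permutation p = 0.1, 0.14 adjusted). miR159 over miR394a was higher in reproductive buds, at 2.08 ± 0.118, than in juvenile buds, at 1.40 ± 0.0513 (SD, n = 3 and n = 2, exact permutation p = 0.1, 0.14 adjusted). miR159 over miR482a-5p was 0.723, 0.514 and 0.574 in the reproductive libraries, against 0.597 and 0.591 in the juvenile libraries, with groups that overlapped. Over miR166a, of the family that acts on HD-ZIP III mRNAs, miR319 was 0.443, 0.469 and 0.548 in the reproductive libraries, against 0.145 and 0.134 in the juvenile libraries (exact permutation p = 0.1, 0.14 adjusted). miR159 over miR166a was 0.114, 0.153 and 0.167 in the reproductive libraries, against 0.0895 and 0.0875 in the juvenile libraries (exact permutation p = 0.2, 0.22 adjusted).

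Of 6 families linked to the MYB and TCP targets or to the age pathway, 2 were called higher under TMM, 2 lower and 2 were not called, where 51.4% of the 37 families were called in either direction (13.5% higher and 37.8% lower). miR858, which acts on other MYB mRNAs, was lower (log2 fold change -1.04, SE 0.16, edgeR adjusted p = 1.3e-08) but stood at 0.091 with the sums alone. miR828, also a regulator of MYB genes, had between 4 and 20 counts per library and a log2 fold change of 0.02 (SE 0.97). miR164, which acts on NAC mRNAs of organ boundaries and is promoted by TCP factors in Arabidopsis, passed narrowly (0.77, SE 0.34, edgeR adjusted p = 0.049). That call ended in each of the 5 fits that leave out 1 library (edgeR adjusted p from 0.053 to 0.13). With all 5 libraries, miR164 was also called higher with DESeq2 (0.76), with TMM over the families (1.23) and with the sums alone (1.89). miR396, which acts on growth-regulating factor mRNAs and is promoted by a TCP factor in Arabidopsis, was not called under TMM (0.15, SE 0.16). It was called higher with TMM over the families (0.61) and with the sums alone (1.26). Of the age pathway, miR156 was called lower (-1.37, SE 0.25, edgeR adjusted p = 1.7e-06). The miR156 call ended with the sums alone (-0.27) and without juvenile replicate 1 (-0.83, edgeR adjusted p = 0.13). miR172 was called higher (0.70, SE 0.22, edgeR adjusted p = 0.0037), although its reproductive and juvenile libraries overlapped. The miR172 call held with TMM over the families (1.14) and with the sums alone (1.80), and ended with DESeq2 (adjusted p = 0.052). In edgeR it also ended when reproductive replicate 2 (adjusted p = 0.088), reproductive replicate 3 (0.15) or juvenile replicate 2 (0.40) was left out.

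The named miRNAs whose normalised counts followed each family most closely differed between the families. Likeness was the root mean square difference of log2 values centred over the 5 libraries, among 14 distinct named miRNAs outside both families with enough counts. Nearest to miR159 were miR858 (0.157), miR482a-5p (0.159) and the counts shared by miR396f and miR396g (0.254). Nearest to miR319 were the counts shared by miR396c, miR396d and miR396e (0.225), those shared by miR167b to miR167g (0.321) and those shared by miR393a, miR393b and miR393c (0.333). The miR159 and miR319 sums lay 0.555 apart on the same measure. The 3 nearest were picked as the smallest of 14 distances, so setting 0.555 beside them tests nothing.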

How the data were processed

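Per the labels' protocols, small RNAs of bud and sucker tissue were purified on a gel and made into libraries by adapter ligation and amplification. The authors deposited raw counts, 1 whole number per feature and library. The submitters' processing notes name Bowtie 1.1.2. The genome build, the mismatches allowed and the handling of reads with several matches are not given in the sources. Columns were matched to sample titles by phase and replicate number. Computations used R 4.3.3, edgeR 4.0.16 and DESeq2 1.42.0. Tested features had 10 or more counts in 2 or more libraries (edgeR's quasi-likelihood test, group as the only term, TMM factors, Benjamini-Hochberg threshold 0.05). The fit was also run on simulated counts with known library factors, which cannot test the scaling between libraries. The standard error (SE) is the log2 fold change divided by the square root of F. Normalised counts are counts divided by the TMM-scaled library size relative to its geometric mean. The 44 families (37 tested) were formed from names, adding each distinct set of counts once, with the library factors of all features. Shares and quotients (quotients as log2 values) were compared with exact permutation tests over 10 splits of the absolute difference of means. The fold change of a member was compared with that of its family by diffSpliceDGE. Reads may be counted repeatedly, so counting intervals were left out. No library was a copy of another (chi-square per feature from 1.94 to 6.63 within groups). Members, lists and alternatives were chosen with earlier results of these data known. Every distinct member, both families, 6 related families and the 3 nearest profiles per family are named; quotients over abundant miRNAs, over minor members and shares of named miRNAs were added after values were seen. Alternatives were the sums alone, TMM over the families, DESeq2, no count minimum, a replicate block, all members added and leaving out each library.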

Additional observations from a re-analysis of the deposited data

How the results depend on the processing

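With the sums of counts alone, log2 fold changes turned to 0.41 for miR159a/b, 0.41 for the miR159 family and 0.091 for miR858, and the miR319 family was called (1.52). With TMM over the families the calls of miR159a/b (-0.27) and the miR159 family (-0.27) ended and the miR319 family was called (0.87). The construction of these settings, a common shift of all features, moves such values together. Features called higher and lower were 59564 and 68585 under TMM, 235325 and 6957 with the sums alone, 104163 and 18879 with TMM over the families, and 35951 higher with DESeq2. Scaling on the miR159 sum put the miR319 balance past the threshold (1.12 in edgeR). The share of families called in that fit is not given, so this call does not set miR319 apart. miR159c and miR319c kept direction and call in all 10 alternatives run for each, though none combined another scaling with a library left out.

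Leaving out 1 library at a time gave log2 fold changes from -0.86 to -0.58 for miR159a/b, -2.64 to -1.60 for miR159c, 0.27 to 0.49 for miR319a/b, 2.54 to 2.77 for miR319c, -0.86 to -0.58 for the miR159 family and 0.28 to 0.50 for the miR319 family. The balance ranged from 1.01 to 1.18 on the log2 scale. miR159c against its family ranged from -2.06 to -0.74 and miR319c from 2.06 to 2.49. Features called ranged from 31259 (without juvenile replicate 2) to 65384 higher and from 49753 to 70311 lower. Where a juvenile library was left out, the lone one was assumed to vary like the reproductive libraries. The causes of the lost calls of miR319a/b and of miR159c against its family were not tested. miR159c had from 16 to 44 counts per library.

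The labels give both groups replicates 1 and 2 without saying that a number marks anything shared. Deviations from the group mean correlated at -0.24 and -0.099 between same-numbered libraries. With only 2 juvenile libraries their deviations mirror each other, so these values are not independent and cannot settle whether numbers pair libraries. With the replicate number as a block, which fits reproductive replicate 3 by itself and so sets it aside, 46749 features were called higher and 55391 lower, all 4 members kept their calls, and miR159c against its family (-1.55) missed the threshold (adjusted p = 0.084), as did the miR164 (0.40) and miR172 (0.13) families.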
